A study of Mus musculus with 12 samples.

Results

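A set of 47 genes of DNA replication and mitosis was examined in the jejunum of mice, of 12393 genes measured in the series. A gene was represented by the probe set that the platform table assigned to its symbol alone. Where there were several, the one with the highest mean over the arrays was taken. Probe sets with names ending in _x_at, a cross-hybridising type, were avoided where another existed. The _s_at type was not avoided and represents Mcm2, Mcm7, Stmn1 and Aurkb. Of the 47 genes, 46 had such a probe set; cyclin B1 (Ccnb1) did not and is not analysed here. They comprised 24 replication genes, 20 mitosis genes, and Ezh2 and Stmn1, which belong to neither set. In no comparison of diet or genotype did any of the 46 pass the test. Most had a slightly higher mean on the quercetin diet in both genotypes. Averaged over the genotypes 42 of 46 did so, against 55.4% of all genes. The mitosis genes mostly had a slightly lower mean in POR-null mice, 16 of 20 averaged over the diets against 6270 of all 12393 genes. The median differences of the mitosis genes were smaller than the spread of their median between single pools (SD 0.15). Such a spread is not the error of a difference between group means. For the replication genes the quercetin medians of 0.09 to 0.10 were slightly above that spread (SD 0.08), and the ranges of the groups overlapped.

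The samples were 12 pools of jejunal RNA, each from 3 male C57BL/6 mice aged 6 to 8 weeks, with 3 pools in each of 4 groups. The groups were wild-type and POR-null mice, each on a control diet or on that diet containing 6.2 g/kg of the flavonoid quercetin for 24 hours (about 7 mg per mouse). All mice had eaten a soya-free RM3 powdered diet for 14 days beforehand and were kept 3 to a cage. POR is the cytochrome P450 oxidoreductase, which passes electrons to microsomal P450 enzymes; the tissue in which POR-null mice lack it is not stated in the labels, and the targeted gene is not analysed here. The small intestine was cut into 3 equal lengths, the middle one being taken as jejunum, and its epithelium was scraped off, so a pool holds villus and crypt cells together with whatever lies in the scrape. Each pool was hybridised to one Affymetrix 430A array and the deposited values are log2 intensities. Whether the mice of a pool shared a cage is not given, so p-values measure the spread between pools only.

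The intestinal epithelium renews itself continuously. Stem cells and their transit-amplifying daughters divide in the crypts, and the cells stop dividing as they move onto the villus. In a dividing cell, the origin licensing factors Cdc6 and Cdt1 load the MCM helicase onto DNA before S phase, and polymerases, the sliding clamp Pcna and nucleotide-making enzymes then copy the genome. Cyclin A2, the B cyclins and Cdk1 drive the cell into mitosis, and Cdc20 with the anaphase-promoting complex lets it out again. Replication genes are classically controlled through E2F sites, and genes of the later phases through a CHR element together with CCAAT boxes bound by NF-Y.

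The arrays were alike over all probe sets, with correlations of 0.991 to 0.995 within groups and 0.989 to 0.995 between them and array medians of 5.94 to 6.01. All 10 measured mature enterocyte markers had means at or above the median of all probe sets, as did 7 of 12 crypt stem cell, 5 of 6 Paneth cell, 7 of 9 T cell, 8 of 10 B cell and 3 of 10 smooth muscle markers. Olfm4, Alpi and Sis were among the markers not measured. In a scrape, fewer dividing cells and less RNA per dividing cell cannot be told apart. Of the cell cycle genes, 12 of 24 for replication, 13 of 20 for mitosis and both others had means at or above the median of all probe sets, 5.99. The dimmest were Aurkb (mean 3.24), Cdc6 (3.72), Ccne2 (3.80), Kif20a (3.88) and Rfc4 (3.90), where the lowest value of any probe set was 2.69. Whether such dim probe sets report expression was not tested. Brightness is compared below only within a gene, since probe sets differ in their response.

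The promoters are shown because they separate the replication from the mitosis genes without using any expression value. Among the promoters of RefSeq on GRCm38.p6, spanning 250 bases before to 50 after the start, 38 of the 46 genes had an entry. They were searched on both strands for an E2F-type motif (TTCCCGC or TTGGCGC), a CHR-type motif (TTTGAA) and the CCAAT box (CCAAT). In 2 genes an E2F-type match overlapped a CCAAT box. The 120 bases before the start are given 5′ to 3′ along the gene's strand, with matches on either strand in capitals. The first 6 are mitosis genes. Mki67 encodes the proliferation antigen Ki-67 of the chromosome surface, Top2a the topoisomerase that untangles chromosomes, and Cdk1 the mitotic kinase.
Mki67 (chr7:135716380-135716499, minus strand): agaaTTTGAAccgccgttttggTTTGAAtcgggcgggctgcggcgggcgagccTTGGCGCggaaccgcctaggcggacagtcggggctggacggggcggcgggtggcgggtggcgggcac
Top2a (chr11:99024190-99024309, minus strand): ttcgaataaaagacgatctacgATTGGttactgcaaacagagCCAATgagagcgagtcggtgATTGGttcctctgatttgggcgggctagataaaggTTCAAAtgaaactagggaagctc
Cdk1 (chr10:69352913-69353032, minus strand): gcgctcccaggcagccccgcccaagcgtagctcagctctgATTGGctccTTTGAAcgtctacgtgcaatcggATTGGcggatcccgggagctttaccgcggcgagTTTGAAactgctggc
Ube2c is the ubiquitin-conjugating enzyme of the anaphase-promoting complex, Cdc20 its activator, and Cks2 a small subunit that docks Cdk1 to its substrates.
Ube2c (chr2:164769809-164769928, plus strand): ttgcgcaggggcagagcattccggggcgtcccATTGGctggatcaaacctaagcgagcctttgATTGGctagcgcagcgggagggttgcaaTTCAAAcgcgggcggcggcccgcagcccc
Cdc20 (chr4:118437344-118437463, minus strand): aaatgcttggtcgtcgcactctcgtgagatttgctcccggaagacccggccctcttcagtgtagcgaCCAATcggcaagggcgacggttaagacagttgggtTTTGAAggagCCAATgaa
Cks2 (chr13:51645112-51645231, plus strand): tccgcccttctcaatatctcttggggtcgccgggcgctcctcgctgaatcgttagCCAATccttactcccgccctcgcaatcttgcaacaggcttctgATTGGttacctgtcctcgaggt
The other 3 are replication genes. Mcm6 is a subunit of the MCM helicase, Rrm1 the large subunit of ribonucleotide reductase, and Pcna the sliding clamp.
Mcm6 (chr1:128359706-128359825, minus strand): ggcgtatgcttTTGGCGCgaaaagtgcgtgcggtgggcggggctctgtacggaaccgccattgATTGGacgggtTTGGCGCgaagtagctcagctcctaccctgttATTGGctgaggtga
Rrm1 (chr7:102441575-102441694, plus strand): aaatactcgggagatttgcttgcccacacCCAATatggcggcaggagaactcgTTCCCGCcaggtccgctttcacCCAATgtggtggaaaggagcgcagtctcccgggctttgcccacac
Pcna (chr2:132253181-132253300, minus strand): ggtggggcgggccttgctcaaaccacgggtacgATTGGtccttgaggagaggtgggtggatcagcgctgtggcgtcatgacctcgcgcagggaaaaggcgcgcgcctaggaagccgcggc

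The E2F-type motif was present in 12 of 21 replication promoters (57.1%) and in 2 of 16 mitosis promoters (12.5%), against 6.93% of all 27025 promoters in the table. The 2 mitosis genes with it were Mki67 and Cdk1. The CHR-type motif ran the other way, in 3 of 21 replication promoters (14.3%) and 11 of 16 mitosis promoters (68.8%), against 18.1% of all. The CCAAT box was in 12 of 21 replication and 13 of 16 mitosis promoters, against 37.9% of all. Every mitosis promoter with a CHR-type motif also held a CCAAT box, 11 of 16, where 7.12% of all promoters held both. Counted from the start, E2F-type matches in Mcm6 began at -109 and -46, CHR-type matches in Cdk1 at -71 and -15, and one in Top2a at -23. Cks2, one of the most variable mitosis genes below, had 4 CCAAT boxes in its window and no CHR-type match, and Pcna had neither an E2F-type nor a CHR-type match in this window. The same search in cell cycle genes outside the 47 gave the E2F-type motif in 11 of 27 other replication promoters (40.7%) and the CHR-type motif in 23 of 37 other mitosis promoters (62.2%). A match of letters is a description and not a measured binding site.

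**Figure D1:**
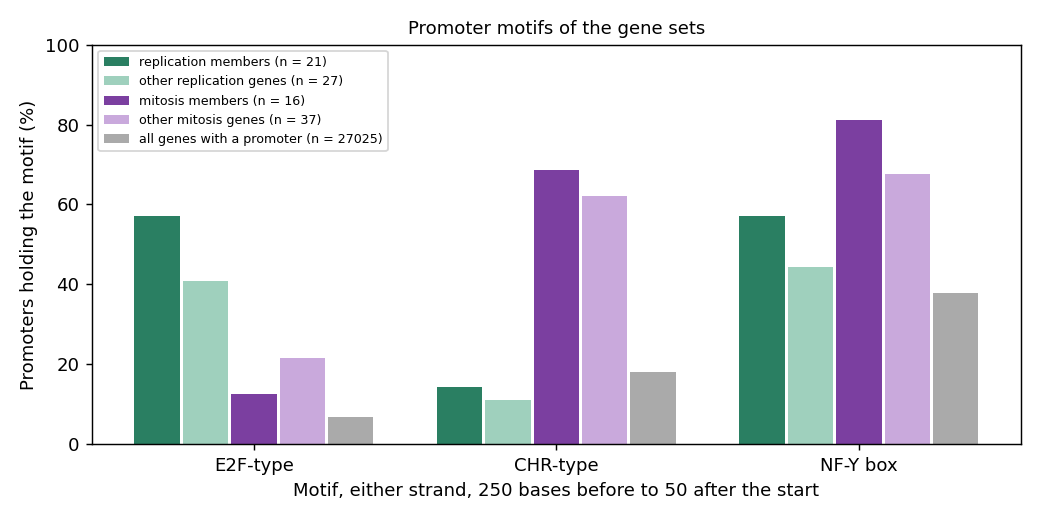
Share of promoters (percent, y axis) that hold each motif (x axis; the NF-Y box is the CCAAT box), by gene list, with all promoters of the table for comparison. The E2F-type motif stands highest in the replication genes (57.1%) and the CHR-type motif in the mitosis genes (68.8%).

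Before any comparison of groups, the 20 mitosis genes had a higher median spread from pool to pool than all genes. The median within-group SD was 0.18 for mitosis genes and 0.16 for replication genes, against 0.12 for all genes on the log2 scale. Cks2 had the widest span over the 12 pools, 1.34 in log2 or 2.53-fold, followed by Mki67 (2.13-fold) and Top2a (2.06-fold). Among replication genes Mcm7, another helicase subunit, spanned 1.84-fold. Mcm2, of the same helicase, spanned 1.14-fold, the least of the 46.

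Mki67 stood at 6.93, 6.23 and 7.07 in the wild-type control pools 1, 2 and 3, and at 7.02, 7.13 and 7.20 in the wild-type quercetin pools. In POR-null mice it stood at 6.66, 6.59 and 6.11 on the control diet and at 6.66, 6.84 and 6.82 on quercetin. Wild-type control pool 2 and POR-null control pool 3 were low, and within each genotype the quercetin pools were closer together than the control pools.

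Top2a was 7.13, 6.14 and 6.95 in wild-type control pools, 6.80, 7.09 and 6.98 with quercetin, 6.81, 6.61 and 6.28 in POR-null control pools and 6.53, 7.18 and 6.91 with quercetin. Cks2 was 7.09, 6.89 and 7.38, then 7.11, 7.63 and 7.43 in the same wild-type groups, and 7.31, 6.87 and 6.29, then 6.90, 7.10 and 7.29 in the POR-null groups. In both genes the groups overlapped, and the lowest pools of the 4 groups were wild-type control 2, wild-type quercetin 1, POR-null control 3 and POR-null quercetin 1.

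These low pools recurred across the mitosis genes. Wild-type control pool 2 was the lowest of its group in 18 of 20 mitosis genes (90%, against 31.0% of all genes), and POR-null quercetin pool 1 in 19 of 20 (95%, against 38.6%). Wild-type quercetin pool 1 was lowest in 16 of 20 and POR-null control pool 3 in 14 of 20. Among replication genes wild-type control pool 2 was the lowest of its group in 16 of 24, wild-type quercetin pool 1 in 15 and POR-null quercetin pool 1 in 14. In the POR-null control group pool 2 was lowest in 12 of 24, and pool 3 was lowest in 10 and highest in 11. Over all 12 pools, 8 mitosis genes were lowest in wild-type control pool 2 and 8 in POR-null control pool 3. Pools of one group thus differed in many mitosis genes at once.

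**Figure D2:**
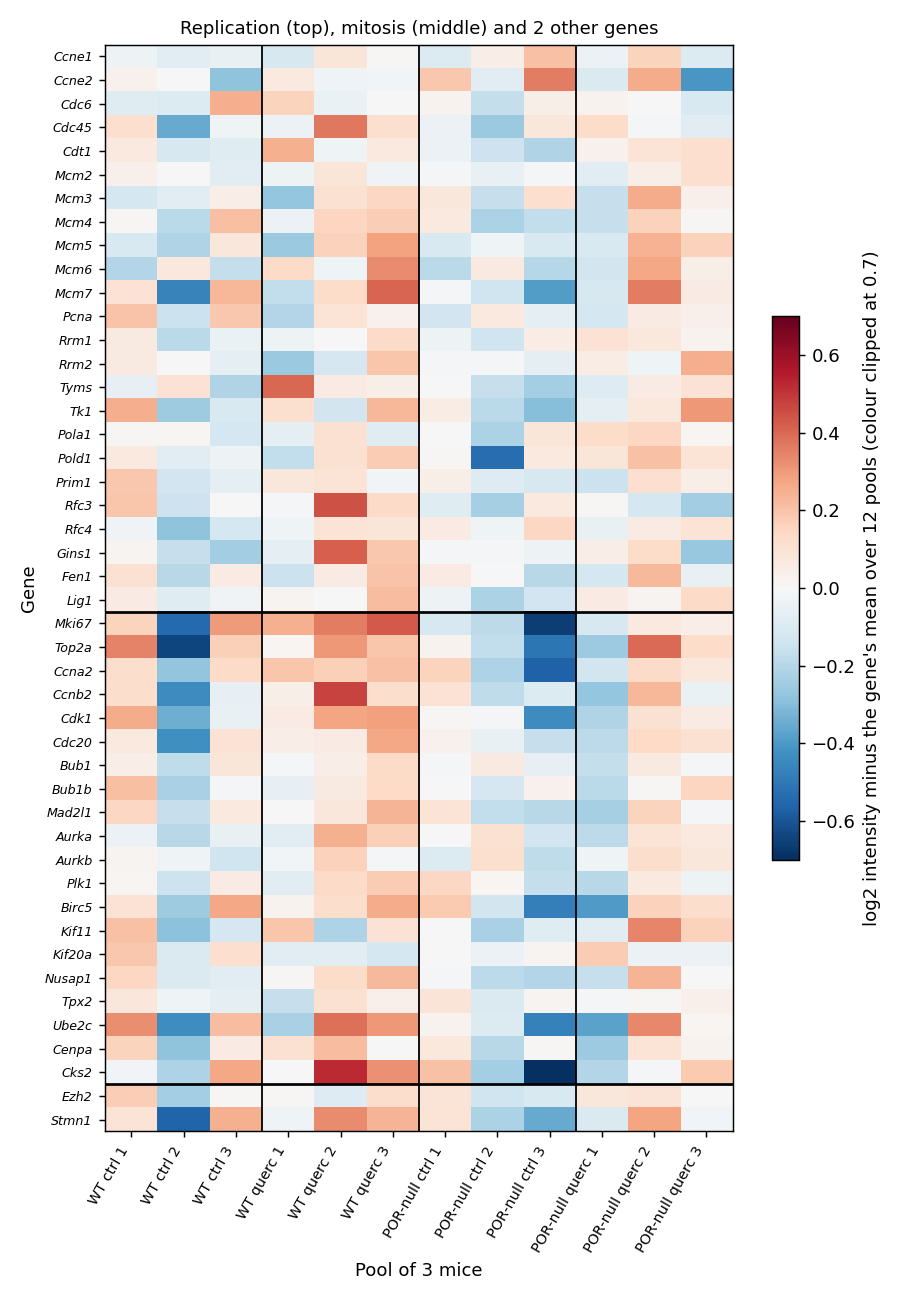
Log2 value of each of the 46 genes in each pool, centred on the gene's mean over the 12 pools (colour, clipped at 0.7), with genes as rows and the 3 pools of each group as columns. Wild-type control pool 2 is low in most rows of the mitosis block, and POR-null control pool 3 is low for Cks2 and Mki67.

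The median of the centred mitosis genes gave a pool-level summary. It was 0.14, -0.24 and 0.06 in wild-type control pools 1, 2 and 3, and 0.00, 0.15 and 0.19 with quercetin. In POR-null mice it was 0.03, -0.12 and -0.17 on the control diet and -0.19, 0.12 and 0.05 with quercetin. The means were -0.01 ± 0.20, 0.11 ± 0.10, -0.09 ± 0.10 and -0.01 ± 0.16 in the 4 groups in that order (SD, n = 3 pools each), so all 4 overlapped. The replication median was -0.04 ± 0.08, 0.06 ± 0.09, -0.07 ± 0.07 and 0.03 ± 0.08 in the same order. Both summaries had the higher mean with quercetin in each genotype, and in both the ranges of the groups overlapped.

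**Figure D3:**
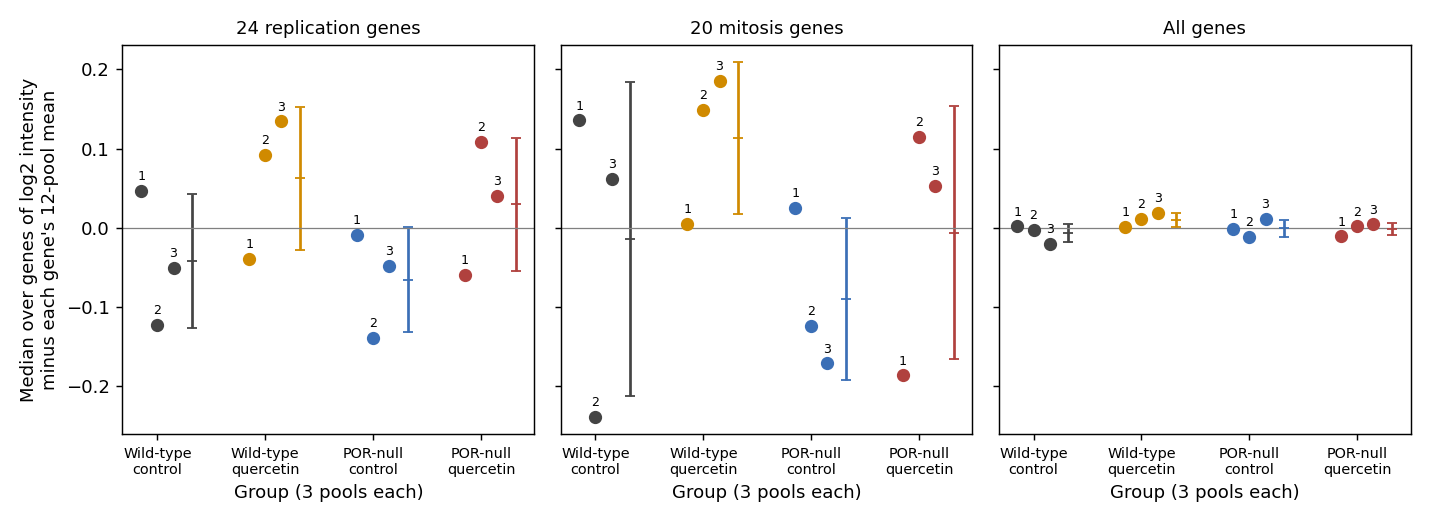
Median over the replication and the mitosis genes of the log2 value centred on each gene's mean (y axis), for all genes as well, one numbered point per pool with the group mean and SD (x axis, the 4 groups). The points of the 4 groups overlap, with mitosis medians between -0.24 and 0.19.

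The first question was whether quercetin shifted these genes in wild-type jejunum. None of the 46 passed limma's test at an adjusted p under 0.05 (Benjamini-Hochberg over 22626 probe sets), where 3 probe sets did so, or 0.0133%. At an unadjusted p under 0.05, 3 of 46 were higher and 0 lower, against 4.56% higher and 4.16% lower among all probe sets. The 3 were Gins1, Rfc4 and Ccnb2. The difference was above 0 in 22 of 24 replication genes and 18 of 20 mitosis genes, against 56.6% of all genes, with medians of 0.09 and 0.125 against 0.02. Ccna2 was the one gene whose quercetin pools all lay above its control pools, against 6.99% of all probe sets (4.57% had them all below).

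Gins1, a subunit of the GINS complex of the moving helicase, read 5.69, 5.51 and 5.43 in wild-type control pools and 5.61, 6.09 and 5.86 with quercetin, a log2 difference of 0.31 ± 0.12 (SE; adjusted p = 0.485). Rfc4, of the complex that loads the clamp, read 3.88, 3.62 and 3.78 and then 3.87, 4.0 and 3.99 (0.19 ± 0.09). In both genes one quercetin pool lay inside the control range. Ccnb2, cyclin B2, read 6.37, 5.81 and 6.19 and then 6.29, 6.72 and 6.37 (0.34 ± 0.15), and Mki67 differed by 0.37 ± 0.18. The wild-type control pool 2 weighed on these values. Without it the mitosis median was 0.02 and the replication median 0.03, and without wild-type control pool 1 they were 0.22 and 0.14. The mitosis median was 0.19 without wild-type control pool 3, and the replication median 0.04 without wild-type quercetin pool 3. The count of 3 was 6 without wild-type control pool 1 (6.54% of all probe sets) or wild-type quercetin pool 1 (5.64%). It was 2 to 4 with any other single pool left out (3.1% to 4.61%). With a score of intestinal segment as a covariate (distal minus proximal markers, described below) the mitosis median was -0.1 and the replication median 0.03. The count was 1 with median centring, where 2.54% of all probe sets were higher and 6.03% lower, and 1 with quantile normalization (3.91% and 4.42%). The 3 probe sets past the test were 23 without wild-type quercetin pool 1 and 0 without wild-type quercetin pool 2 or 3, none of them representing one of the 46 genes.

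In POR-null mice the same comparison again gave 0 of 46 genes past the test and 0 probe sets of 22626 (0%). At an unadjusted p under 0.05, 2 genes were higher and 0 lower, against 2.04% and 1.98% of all probe sets. The difference was above 0 in 19 of 24 replication and 17 of 20 mitosis genes, against 49.0% of all genes, with medians of 0.10 and 0.09 against 0.00. Cdt1, Lig1 and Pold1 had all 3 quercetin pools above all 3 control pools, 3 of 46 against 4.34% of all probe sets, and no gene had them all below (4.71%).

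Cdt1, the licensing factor that loads the MCM helicase, read 7.25, 7.15 and 7.08 in POR-null control pools and 7.32, 7.39 and 7.41 with quercetin, a difference of 0.21 ± 0.09 (adjusted p = 0.995). Lig1, the ligase that seals Okazaki fragments, read 6.99, 6.80 and 6.89 and then 7.08, 7.04 and 7.16 (0.20 ± 0.09). Pold1, the catalytic subunit of polymerase delta, read 6.45, 5.91 and 6.51 and then 6.53, 6.65 and 6.54, a difference of 0.28 ± 0.13, with control pool 2 low. Of the mitosis genes the smallest p belonged to Mki67 (0.32 ± 0.18) and the spindle motor Kif11 (0.25 ± 0.14), whose pools overlapped. The mitosis median of 0.09 was 0.02 without quercetin pool 2 or control pool 3, 0.14 without control pool 1 and 0.17 without quercetin pool 1. The replication median was 0.06 without control pool 2 or quercetin pool 2, and 0.09 to 0.14 without any other POR-null pool. The count of 2 was 6 without control pool 1 (2.46% of all probe sets) and 4 without quercetin pool 1 (2.43%). It was 1 without control pool 3 (1.91%) or quercetin pool 2 (1.7%), and 0 without control pool 2 (1.83%) or quercetin pool 3 (1.53%). With a crypt stem cell score as a covariate the mitosis median was -0.05 and the replication median 0.01. The count was 7 with the segment score (2.37% of all probe sets), and 14 without the 3 pools highest in smooth muscle markers (3.06%; the pools are given below).

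Averaged over the genotypes, quercetin pools had the higher mean in 21 of 24 replication genes and 19 of 20 mitosis genes, against 6865 of all 12393. The medians were 0.09 and 0.125, against 0.01 for all genes. In 17 replication, 15 mitosis and both other genes the mean was higher in each genotype taken alone, and in none was it lower in both. Of all genes 56.6% were higher in wild-type and 49.0% in POR-null mice, and the share higher in both was not counted. None of the 46 passed the test, where 2 of all probe sets did (0.00884%). At an unadjusted p under 0.05, 5 genes were higher and 0 lower, against 3.96% and 3.85% of all probe sets. These were Cdt1, Mcm6, Tyms and Lig1 of replication and Mki67 of mitosis.

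By role, all 6 MCM subunits lay above 0 (median 0.13), from Mcm3 at 0.04 to Mcm7 at 0.23. Mcm6 read 6.66, 6.94 and 6.70 in wild-type control pools, 7.00, 6.84 and 7.20 with quercetin, 6.68, 6.93 and 6.67 in POR-null control pools and 6.74, 7.14 and 6.91 with quercetin. Its average difference was 0.21 ± 0.09 (adjusted p = 0.607), and the groups overlapped. Mcm2 stayed between 5.84 and 6.03 in all 12 pools, with a difference of 0.04 ± 0.05.

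The 4 licensing and firing factors had a median of 0.15, led by Cdt1 (0.17 ± 0.06, adjusted p = 0.562), with Cdc6 at 0.01. The 4 nucleotide enzymes had a median of 0.14. Among them Tyms, thymidylate synthase, differed by 0.19 ± 0.08 and Tk1, thymidine kinase, by 0.18. Rrm2, the small subunit of ribonucleotide reductase, read 5.15, 5.09 and 5.02, then 4.83, 4.97 and 5.28 in the wild-type groups, and 5.08, 5.08 and 5.02, then 5.14, 5.06 and 5.34 in the POR-null groups. Its difference of 0.03 ± 0.08 went in opposite directions in the 2 genotypes in this probe set. Its 2 other probe sets were above 0 in wild-type and POR-null mice, at 0.05 and 0.18 and at 0.09 and 0.21.

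Pcna was one of the 2 replication genes below 0. It read 8.67, 8.32 and 8.66 in wild-type control pools, 8.27, 8.57 and 8.50 with quercetin, 8.34, 8.54 and 8.41 in POR-null control pools and 8.35, 8.53 and 8.51 with quercetin. The difference was -0.04 ± 0.08, with a 95% interval from -0.20 to 0.13. Ccne1 and Ccne2, the cyclins E that start S phase, stood at 0.00 ± 0.07 and -0.08 ± 0.10. Ccne1 lay between 6.04 and 6.36 in every pool. Lig1 differed by 0.15 ± 0.06.

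Among the mitosis genes the 4 mitotic cyclins and Cdk1 partners (Ccna2, Ccnb2, Cdk1 and Cks2) had a median of 0.20, all above 0. Cdk1 read 7.57, 6.97 and 7.26 in wild-type control pools, 7.37, 7.59 and 7.60 with quercetin, 7.32, 7.30 and 6.87 in POR-null control pools and 7.10, 7.42 and 7.37 with quercetin, a difference of 0.19 ± 0.11. Ccna2 read 7.51, 7.11 and 7.52 against 7.58, 7.55 and 7.59 in wild-type mice and 7.54, 7.17 and 6.82 against 7.26, 7.52 and 7.46 in POR-null mice, a difference of 0.21 ± 0.11 (adjusted p = 0.654). In wild-type mice its quercetin pools were almost equal and the control pools were not.

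The chromosome proteins Mki67, Top2a, Cenpa and Birc5 had a median of 0.18. Mki67 had the largest difference of the 46, 0.35 ± 0.13 or 1.27-fold (adjusted p = 0.564, 95% interval 0.08 to 0.62), and Top2a differed by 0.26 ± 0.15. The mitotic kinases were nearer 0, with a median of 0.04. Plk1, which acts at centrosomes and kinetochores, read 6.18, 6.02 and 6.22, then 6.09, 6.30 and 6.34 in wild-type mice, and 6.31, 6.18 and 6.00, then 5.97, 6.23 and 6.13 in POR-null mice, a difference of 0.03 ± 0.07. Kif20a, a motor of cytokinesis, was the one mitosis gene below 0 (-0.06 ± 0.06). Over all 46 genes the 95% intervals reached no lower than -0.30 and no higher than 0.62.

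Stmn1, stathmin, a microtubule-destabilising protein abundant in dividing cells, read 8.55, 7.89 and 8.70, then 8.42, 8.78 and 8.69 in wild-type mice, and 8.55, 8.23 and 8.10, then 8.35, 8.73 and 8.43 in POR-null mice. Its difference was 0.23 ± 0.13, and its low pools were again wild-type control 2 and POR-null control 3. Ezh2, the histone methyltransferase of the Polycomb complex, differed by 0.07 ± 0.07 and lay between 5.85 and 6.26 in all pools.

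**Figure D4:**
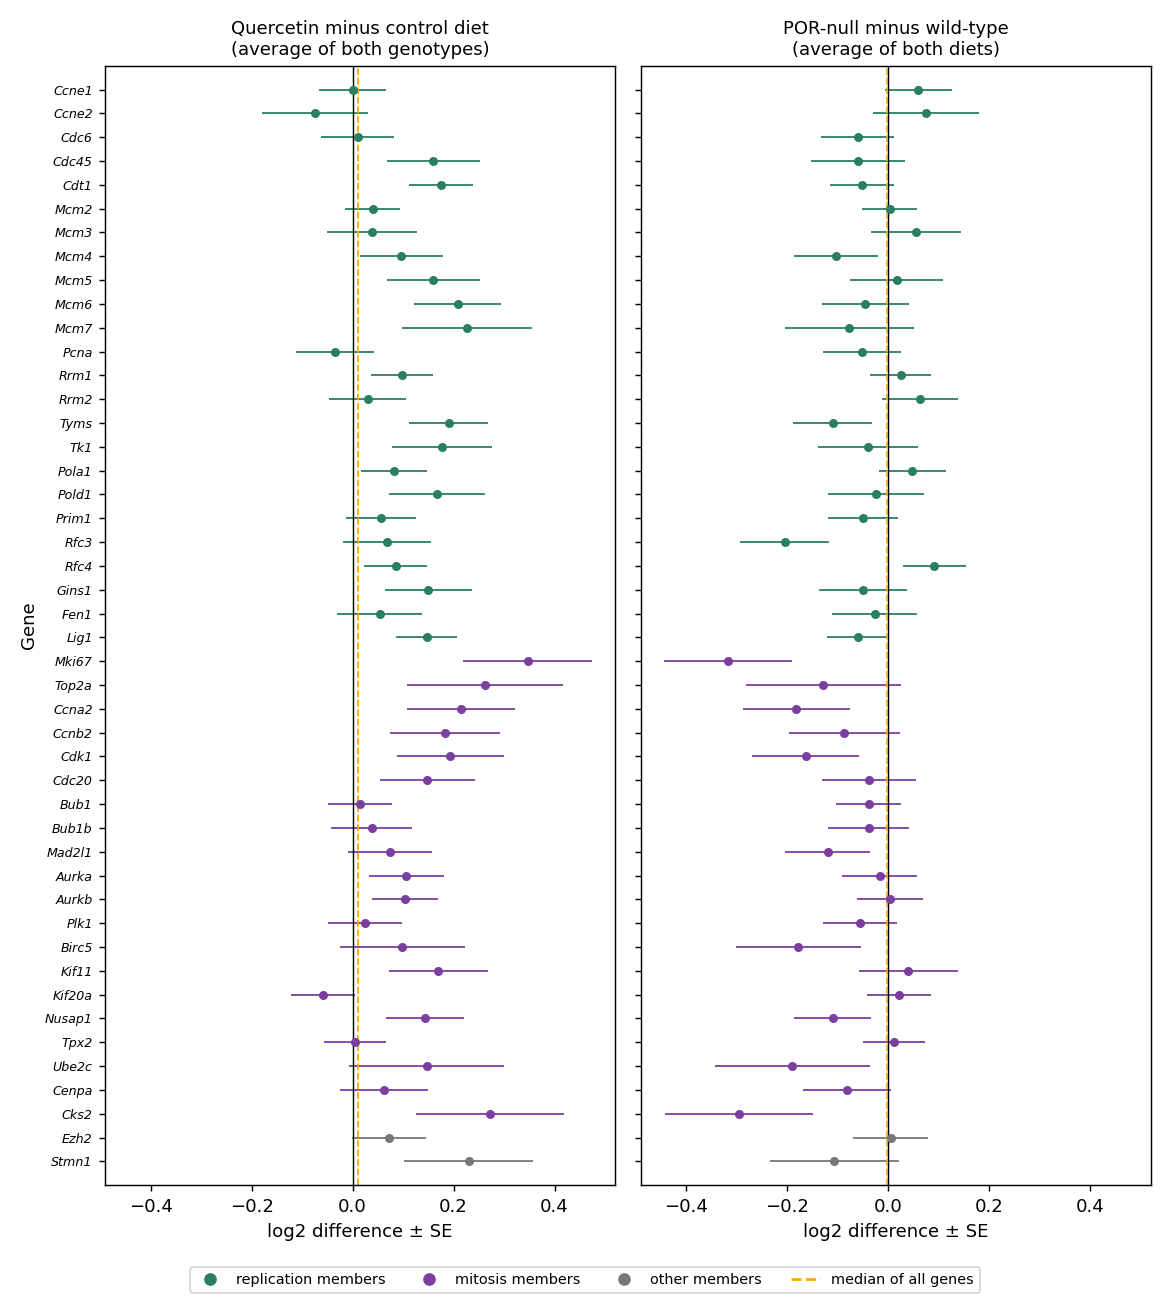
Average quercetin (left) and average genotype (right) log2 difference of each gene ± SE (x axis), the dashed line marking the median of all genes, genes as rows coloured by replication, mitosis or neither. Nearly all genes lie to the right of 0 for quercetin, with Mki67 farthest at 0.35, and most mitosis genes lie to the left of 0 for POR-null against wild-type.

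The averaged values moved when single pools were left out and when the crypt or segment score was a covariate. The mitosis median of 0.125 was 0.07 without wild-type control pool 2 or without POR-null control pool 3, and 0.19 without POR-null quercetin pool 1. The replication median was 0.06 without wild-type control pool 2. Without the 3 pools highest in smooth muscle markers (wild-type control 3, POR-null control 1 and POR-null quercetin 1) the mitosis median was 0.22 and the replication median 0.12. In that fit 18 of 46 genes were higher at an unadjusted p under 0.05 in place of 5, against 4.6% of all probe sets. Still none passed the test. The centred mitosis medians of these pools were 0.06, 0.03 and -0.19. POR-null control 1 was the highest pool of its group and POR-null quercetin 1 the lowest quercetin pool. Leaving these pools out therefore raises the quercetin difference of the mitosis genes in itself, and leaves fewer pools in their groups. The count was 12 without wild-type control pool 1 (5.43% of all probe sets) or without POR-null quercetin pool 1 (4.45%), 10 without wild-type quercetin pool 1 (4.51%) and 8 without POR-null control pool 1 (4.07%). It was 3 without POR-null quercetin pool 2 (3.08%) or without wild-type quercetin pool 3 (2.88%). Median centring gave 3 genes higher, with 2.17% of all probe sets higher and 5.65% lower. With the crypt stem cell score as a covariate the mitosis median was 0.01 and the replication median 0.04. With the segment score they were 0.01 and 0.05. With either score 2 genes were higher at an unadjusted p under 0.05, against 3.2% of all probe sets with the crypt and 3.39% with the segment score.

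Marker lists of other cell types in the scrape also had median differences away from 0. None of the crypt stem cell, Paneth cell, mature enterocyte or T cell markers passed the test for quercetin. The pool medians of the crypt stem cell markers overlapped between the diets. Crypt stem cell markers had an average quercetin difference above 0 in 11 of 12 (median 0.07) and Paneth cell markers in 5 of 6 (median 0.21). Of all genes 55.4% lay above 0. Both cell types sit in the crypt. Stem cells themselves divide, so the crypt stem cell score is not separate from cell division. Mature enterocyte markers had a median of -0.12, with 7 of 10 below 0. The centred crypt stem cell median was -0.12 both in wild-type control pool 2 and in POR-null control pool 2, and lay from -0.05 to 0.08 in the other 10 pools. It was highest in POR-null quercetin pool 1 (0.08), a pool low in mitosis genes. Smooth muscle markers were highest in wild-type control pool 3 (0.85) and lowest in wild-type control pool 1 (-0.32). Distal segment markers in wild-type mice had medians of -0.20, -0.22 and 0.00 in control pools and 0.11, 0.19 and 0.40 with quercetin, and 2 single markers of segment passed the test there, distal Osr2 (0.76, adjusted p = 0.0322) and proximal Ckb (-0.98, adjusted p = 0.0116). T cell markers had medians of -0.19, -0.21 and -0.11 in wild-type control pools and 0.01, 0.08 and 0.08 with quercetin, and B cell markers were highest in POR-null control pool 3 (0.46). In POR-null mice T cell and distal markers ran the other way, below 0 in 6 of 9 (median -0.07) and in 8 of 9 (median -0.15). Proximal markers did not, with 5 of 8 below 0 (median -0.09) against 7 of 8 in wild-type mice (median -0.32). Crypt stem cell markers lay above 0 in 8 of 12 in wild-type mice (median 0.05) and in 11 of 12 in POR-null mice (median 0.10). Averaged over the genotypes 9 of 9 T cell, 6 of 10 B cell, 4 of 6 plasma cell and 1 of 10 smooth muscle markers lay above 0. The part of cell composition in the cell cycle differences was not tested.

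**Figure D5:**
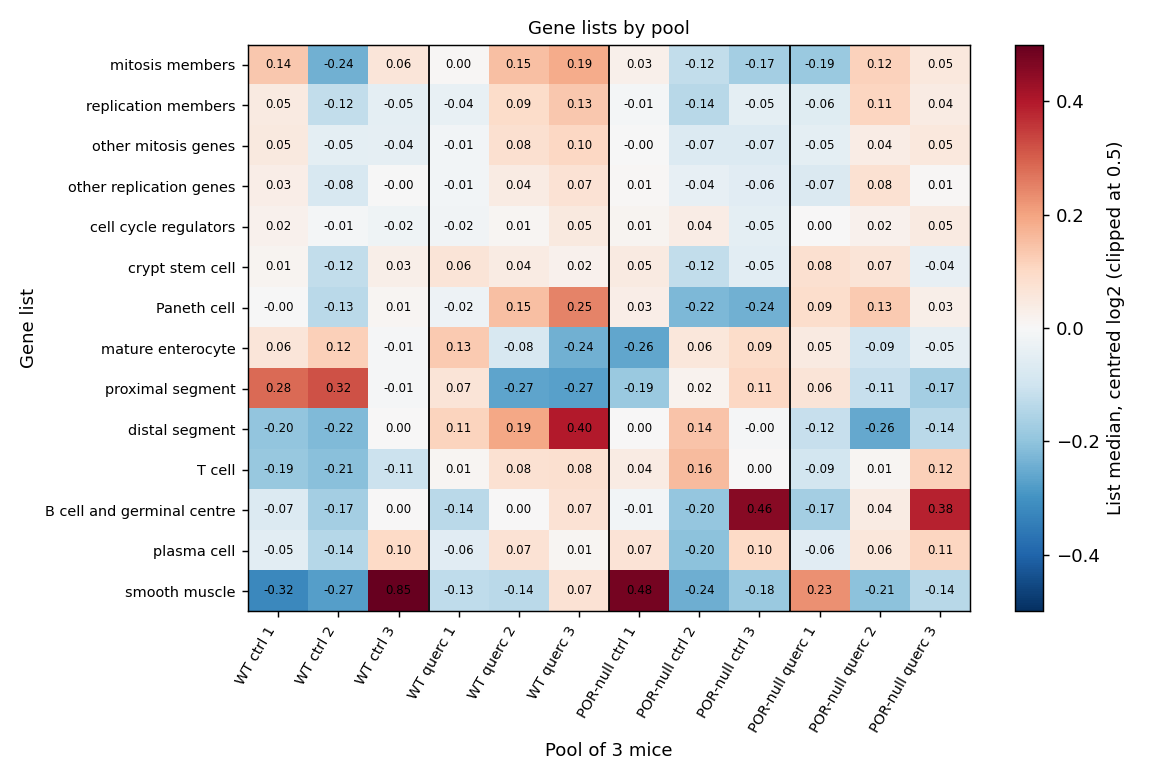
Median centred log2 value (colour and printed number) of the cell cycle lists and of marker lists of cell types and intestinal segments (rows) in each of the 12 pools (columns). Wild-type control pool 2 is low for both mitosis genes (-0.24) and crypt stem cell markers (-0.12), while POR-null quercetin pool 1 is low for mitosis genes (-0.19) and has the highest crypt stem cell median (0.08). Wild-type control pool 3 is high for smooth muscle (0.85).

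The second question was whether loss of POR changed these genes. On the control diet 0 of 46 genes and 0 probe sets passed the test (0%). One gene, Rfc4, was higher at an unadjusted p under 0.05 and 0 were lower, against 3.24% and 2.85% of all probe sets. The difference of POR-null from wild-type was below 0 in 17 of 24 replication and 14 of 20 mitosis genes, against 5784 of all 12393. The medians were -0.03 and -0.06, against 0.01 for all genes. Rfc4 read 3.88, 3.62 and 3.78 in wild-type and 3.96, 3.87 and 4.05 in POR-null pools (0.20 ± 0.09, adjusted p = 0.785), and its groups overlapped by a small margin. No gene had all POR-null pools above all wild-type pools or all below, against 5.15% and 4.29% of all probe sets. Ccne2 (0.24 ± 0.15), Mki67 (-0.29 ± 0.18) and Cks2 (-0.30 ± 0.21) had the next smallest p of their sets. The mitosis median turned to 0.04 without wild-type control pool 1, and was -0.15 without wild-type control pool 2. It was -0.08 and -0.03 with POR-null control pool 1 or pool 3 left out. The replication median was 0.01 and -0.09 without wild-type control pools 1 and 2. With the crypt stem cell score the mitosis median was 0.02. The count of 0 lower genes was 6 without wild-type control pool 2 (3.2% of all probe sets) and 6 with the segment score (3.39%). The count of 1 higher gene was 0 with POR-null control pool 1 or 3 or wild-type control pool 2 or 3 left out (2.95% to 3.79% of all probe sets). It was 2 with POR-null control pool 2 left out (3.2%). With POR-null control pool 3 left out 24 probe sets passed the test, none of them representing one of the 46 genes. Marker lists differed on this diet too. T cell markers lay above 0 in 9 of 9 (median 0.29, with 6 at an unadjusted p under 0.05), distal segment markers in 8 of 9 (median 0.17) and proximal markers in 0 of 8 (median -0.195). Crypt stem cell markers lay below 0 in 9 of 12 (median -0.08). None of these markers passed the test, and their part in the cell cycle values was not tested.

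On the quercetin diet 0 genes and 0 probe sets passed (0%), and one gene, Rfc3, was lower and 0 higher at an unadjusted p under 0.05, against 2.05% and 1.83% of all probe sets. Rfc3, like Rfc4 a subunit of the clamp loader, read 4.73, 5.19 and 4.88 in wild-type and 4.75, 4.62 and 4.50 in POR-null pools (-0.31 ± 0.12, adjusted p = 0.997). The mitosis genes were below 0 in 16 of 20 (median -0.13) and the replication genes in 14 of 24 (median -0.02), against 6654 of all 12393 genes (median -0.01). Mki67 (7.02, 7.13 and 7.20 against 6.66, 6.84 and 6.82) and Ccna2 (7.58, 7.55 and 7.59 against 7.26, 7.52 and 7.46) had all POR-null pools below all wild-type pools, 2 of 46 against 5.41% of all probe sets. Kif20a had them all above, 1 of 46 against 3.77%. Mki67 differed by -0.34 ± 0.18, Ccnb2 by -0.24 ± 0.15 and Gins1 by -0.21 ± 0.12. The mitosis median was -0.02 without POR-null quercetin pool 1, -0.21 without POR-null quercetin pool 2 and -0.08 without wild-type quercetin pool 3, and it was 0.02 with the segment score. The replication median turned to 0.03 without POR-null quercetin pool 1 and to 0.015 without wild-type quercetin pool 3. The count of 1 lower gene was 0 without wild-type quercetin pool 2 (1.59% of all probe sets) or POR-null quercetin pool 3 (1.86%). It was 2 without wild-type control pool 2 (2.03%) or wild-type quercetin pool 1 (2.96%). Of all probe sets, 19 passed the test without POR-null control pool 3 and 24 when only the arrays of this diet were fitted, none of them representing one of the 46 genes. Distal segment markers lay below 0 in 8 of 9 (median -0.31, with 6 at an unadjusted p under 0.05) and proximal markers above 0 in 6 of 8 (median 0.09), none past the test. Crypt stem cell markers were divided, 6 of 12 on each side of 0.

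Averaged over the diets, POR-null pools had the lower mean in 15 of 24 replication genes (median -0.04) and 16 of 20 mitosis genes (median -0.08). Of all 12393 genes 6270 had the lower mean (median 0.00). The mean was lower on each diet in 10 replication and 11 mitosis genes, and higher on each in 3 and 1. The same was not counted over all genes. None of the 46, and 0 of all probe sets (0%), passed the test, and 2 of 46 were lower and 0 higher at an unadjusted p under 0.05, against 2.58% and 2.43% of all probe sets. They were Mki67 (-0.32 ± 0.13, adjusted p = 0.941) and Rfc3 (-0.21 ± 0.09, adjusted p = 0.976).

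The mitotic cyclins and Cdk1 partners had a median of -0.17, with all 4 below 0, and Cks2 stood lowest at -0.29 ± 0.15. Cdk1 differed by -0.16 ± 0.11, Top2a by -0.13 ± 0.15, Stmn1 by -0.11 ± 0.13 and Plk1 by -0.06 ± 0.07. The MCM subunits centred on -0.02, with 3 of 6 on each side, and Mcm2 was at 0.00 ± 0.05 and Mcm6 at -0.05 ± 0.09. Pcna (-0.05 ± 0.08), Rrm2 (0.06 ± 0.08), Ccne1 (0.06 ± 0.07), Ezh2 (0.01 ± 0.07) and Rfc4 (0.09 ± 0.06) were likewise near 0. The 95% intervals of the 46 genes reached from -0.61 to 0.30. The mitosis median was -0.01 with the crypt stem cell score as a covariate, -0.03 without POR-null quercetin pool 1 or without wild-type control pool 1, -0.05 without wild-type quercetin pool 2, -0.13 without POR-null quercetin pool 2 and -0.14 without wild-type control pool 2. The count of 2 lower genes was 8 without wild-type control pool 2 (3.09% of all probe sets) and 4 without POR-null control pool 1 (2.41%). It was 0 without wild-type control pool 1 (2.96%). With any of 6 other pools left out it was 1, against 2.33% to 2.82% of all probe sets (wild-type control 3, wild-type quercetin 2 or 3, POR-null control 2 or 3, POR-null quercetin 1). With POR-null control pool 3 left out 47 probe sets passed the test, and with array weights 20, none of them representing one of the 46 genes. Crypt stem cell markers lay below 0 in 9 of 12 (median -0.05), and T cell markers above 0 in 8 of 9 (median 0.12). The replication median ran from -0.06 to -0.0025 as single pools were left out.

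The third question was whether quercetin acted differently in the 2 genotypes. The interaction, the POR-null quercetin effect minus the wild-type one, gave 0 of 46 genes past the test and 0 probe sets (0%), and no gene had an unadjusted p under 0.05, against 2.15% higher and 2.89% lower among all probe sets. It was above 0 in 14 of 24 replication and 10 of 20 mitosis genes, against 44.8% of all genes. The medians were 0.02 and -0.01, against -0.02 for all genes. Gins1 had the smallest p (-0.32 ± 0.17, adjusted p = 0.956), its difference being 0.31 in wild-type and -0.01 in POR-null mice. Rfc4 (-0.22 ± 0.12), Ccnb2 (-0.31 ± 0.22) and Kif20a (0.20 ± 0.13) followed, and Mki67 stood at -0.05 ± 0.25. The sign of neither median was settled, since the mitosis median ran from -0.125 to 0.07 and the replication median from -0.04 to 0.09 as single pools were left out. With POR-null quercetin pool 2 left out 2 genes were lower at an unadjusted p under 0.05 (2.78% of all probe sets), as were 2 with wild-type control pool 1 left out (3.71%), and with the segment score 2 were higher (2.69%) and 1 lower (3.61%).

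Other cell cycle genes outside the 47 also gave small values. Of 39 further replication genes 34 were measured, of 48 further mitosis genes 42, and of 42 regulators of the cycle 37, and none passed the test in any of the 7 comparisons. Their average quercetin medians were 0.04, 0.06 and 0.04, with 24 of 34, 32 of 42 and 24 of 37 above 0, against 55.4% of all genes. At an unadjusted p under 0.05, 1, 4 and 4 of them were higher and 0, 0 and 2 lower, against 3.96% and 3.85% of all probe sets. Their average genotype medians were -0.03, -0.04 and 0.00.

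Upstream regulators gave no value past the test either. Ccnd1, the cyclin D that answers to growth signals, read 7.85, 7.64 and 8.36, then 7.98, 8.58 and 8.59 in wild-type mice, and 8.57, 8.39 and 7.77, then 7.80, 8.54 and 8.09 in POR-null mice, an average quercetin difference of 0.17 ± 0.17. Myc, the growth-promoting transcription factor, differed by -0.12 ± 0.09, and Cdkn1a, the p21 inhibitor of cyclin-dependent kinases, by -0.05 ± 0.07. Transcription factors known to act on promoters of this kind were near 0 as transcripts, E2f1 at 0.00 ± 0.06, Foxm1 at 0.03 ± 0.07 and Mybl2 at 0.10 ± 0.08. Their average genotype differences lay between -0.06 and 0.03.

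Of the 46 genes, 24 had several single-symbol probe sets, and these differed in sign in 3 for the average quercetin effect and in 8 for the average genotype effect. They did so in 7 for quercetin in each genotype, 12 for genotype on each diet and 10 for the interaction. Other probe sets gave average quercetin differences of 0.00 and 0.05 for Cdt1, 0.05 and 0.10 for Tyms, 0.03 for Top2a and 0.025 for Stmn1. For quercetin in POR-null mice they gave -0.01 for Pold1 and 0.12 and 0.06 for Kif11. Those of Rfc3 on quercetin and Rfc4 on the control diet gave genotype differences of -0.08 and 0.03. Farther from 0 for average quercetin were those of Rrm2, at 0.15 and 0.115, and that of Mcm2, at 0.06. Taking the mean of all probe sets of a gene gave average quercetin medians of 0.08 for replication and 0.11 for mitosis genes, and average genotype medians of -0.03 and -0.07.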

How the data were processed

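The values are log2 intensities of 22690 probe sets on 12 one-colour Affymetrix arrays as the authors deposited them. MAS5 and RMA are listed, with no version, in the submitters' processing notes; their part in making these values is not stated there. The arrays shared a scale and were not normalised again. After 64 control probe sets were left out, 22626 were fitted with limma 3.58.1 in R 4.3.3, with 1 mean per group over all 12 arrays (8 residual and 6.75 prior degrees of freedom). Tests were two-sided and p-values were adjusted by Benjamini-Hochberg over all probe sets within each of 7 contrasts. Differences are given ± SE and group levels ± SD over 3 pools. The pipeline was tested on simulated data.

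The cell cycle genes, the other lists and the genes named were chosen with earlier results of these data known. Named were 12 genes of common use (Ccnb1 unmeasured), the 2 replication and 2 mitosis genes with the smallest p in each contrast, genes past the test and 6 regulators; Pold1, Tyms, Tk1, Mcm3, Mcm7 and Cdc6 were named after their values were seen. Motifs were searched with Python 3.11.15 in RefSeq promoters. Same-numbered arrays of different groups did not deviate together (correlations -0.14 to 0.19), so the numbers were not taken as pairs.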

Additional observations from a re-analysis of the deposited data

How the results depend on the processing

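The count of cell cycle genes past the test stayed at 0 in every one of the 7 contrasts under all alternatives run (median centring or quantile normalization, leaving out dim probe sets, fitting only the groups compared, a robust variance with trend, array weights, a replicate block, the mean of all probe sets, 2 covariate fits, each pool left out, and the 3 pools highest in smooth muscle markers left out). With the replicate number as a block the average quercetin and genotype medians of the mitosis genes were 0.125 and -0.0842, as without it, and 0 genes passed; 4 of 12 arrays correlated best with their own number.

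With the segment score as a covariate the mitosis median was -0.1 for quercetin in wild-type mice, 0.0185 for genotype on quercetin and 0.1545 for the interaction. That score itself varied with the diet in wild-type mice, so these fits cannot separate segment from diet. For quercetin in POR-null mice it was -0.0541 with the crypt stem cell score and 0.2425 without the 3 pools highest in smooth muscle markers, and the replication median was 0.0126 with the crypt score. The other alternatives moved these medians by less than the spread between pools, and the cause was not tested. That spread is the SD of single pools. For the mitosis genes it exceeded the medians themselves, so a large relative shift can fall within it. Single genes changed sign as follows. With the crypt score the average quercetin difference was -0.0695 for Ezh2, -0.048 for Plk1 and -0.004 for Stmn1, and the average genotype difference -0.0084 for Mcm2, 0.0213 for Stmn1 and 0.0117 for Top2a. With the segment score quercetin gave -0.0696 for Mki67 in wild-type mice, and on average -0.076 for Plk1 and -0.0502 for Rrm2. Without the 3 smooth muscle pools the genotype difference was -0.0292 for Ezh2, 0.0058 for Mcm6 and 0.0267 for Pcna. It was -0.0054 for Mcm2 with array weights, and -0.0458 for Mcm2 and -0.02 for Rrm2 with the mean of all probe sets. With single pools left out, the average genotype difference ran from -0.05 to 0.0525 for Ezh2, -0.0183 to 0.0292 for Mcm2 and -0.0975 to 0.0025 for Mcm6, and the average quercetin difference from -0.0925 to 0.0092 for Pcna, -0.0158 to 0.0633 for Plk1 and -0.0333 to 0.0792 for Rrm2.

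All probe sets past the test numbered 2 for the average quercetin effect, 3 with the block and 1 to 8 with single pools left out. For quercetin in wild-type mice they numbered 3, 8 with the block, 0 with the segment score and 0 to 23 with single pools left out. For the average genotype effect they numbered 0, and 0 to 47 with single pools left out. With 3 pools of 3 mice a group, none of the 46 genes passed the test at the sizes seen here.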

Other observations

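Among regulators outside the set of 47, E2f5, Rbl1 and E2f8 had smaller p-values for the average quercetin effect than any gene within it, none past the test. E2f5 differed by 0.19 ± 0.05 (adjusted p = 0.547) and Rbl1, the pocket protein p107, by -0.23 ± 0.07. Rb1, the retinoblastoma protein, differed by -0.21 ± 0.08 for quercetin and by 0.27 ± 0.08 for POR-null against wild-type. E2f8, a repressing E2F, differed by 0.20 ± 0.07 for quercetin, and Ccnd2, a D cyclin, by 0.25 ± 0.11. These genes were chosen after their values were seen.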
